A study of Mus musculus with 9 samples.

Results

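Regions with an ATAC-seq peak in every adult library and in no infant library were described in endothelial cells sorted from mouse lung. ATAC-seq uses a transposase that cuts and tags DNA where chromatin is open, and a peak is a stretch that was called open. Merging every pair of peaks, of whichever library, that shared at least 1 bp gave 126907 regions. Of these, 871 (0.686%) had a peak in all 6 adult libraries and in none of the 3 infant libraries, and they are called adult-only regions below. The members were selected by the peak calls themselves, so the absence of infant peaks from them restates the rule and was not tested.

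The cells were lung endothelial cells, isolated by fluorescence-activated sorting, from infant mice (3 libraries), young adult mice (3 libraries) and mature adult mice (3 libraries). The labels name no genotype, transgene, treatment, strain, sex, exact age or sorting marker. Nothing says that libraries of the same age are different animals, and p-values therefore reflect the spread among these libraries alone, which may be technical. According to its title, the study asks how enhancers differ between angiogenic and quiescent endothelium. Each library is a list of peak positions without a height or a read number, so depth is unknown, the lack of a peak does not establish closed chromatin, and opening in few cells cannot be told apart from weak opening in many.

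Vessels of the infant lung still grow by sprouting and by splitting of capillaries, whereas the adult lung capillary bed is a resting layer that exchanges gas, keeps blood fluid and holds back plasma. Enhancers are stretches of DNA, often far from a gene's start, that bind transcription factors and raise the gene's output, and they are usually found as open chromatin. Promoters lie at the gene's start and are often open in many cell types.

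Few adult-only regions lay at promoters. Of the 871, 10 (1.15%) overlapped a RefSeq promoter window, here 250 bases before to 50 bases after a transcription start, against 23.2% of the 41144 regions with a peak in all 9 libraries and 9.59% of all merged regions. The share was 0.808% for regions with 5 adult and no infant libraries and 2.09% for those with all 6 adult and 1 infant library. It was 4.42% for regions with a peak in all 3 infant libraries and no adult library. A low share was therefore not particular to adult-only regions. The windows that adult-only regions overlapped belonged to Isg15, Ifi206, Ifi209, Gm12250, Phyhd1, Rps6ka1, A330023F24Rik, Gm33945, Gm51489 and 0610039H22Rik. A GAAA followed after any 2 bases by a further GAAA, the core to which interferon regulatory factors (IRFs) are known to bind, was present on either strand in 4 of these 10 windows and in 3.44% of all 32851 promoter windows of the same length. The 4 windows are printed 5′ to 3′ along the gene's own strand, from RefSeq assembly GRCm38.p6, because they are the windows at adult-only regions that share this pattern, and capitals mark each match to this IRF pattern on either strand, with overlapping matches joined.
Isg15 (chr4:156200769-156201068, minus strand): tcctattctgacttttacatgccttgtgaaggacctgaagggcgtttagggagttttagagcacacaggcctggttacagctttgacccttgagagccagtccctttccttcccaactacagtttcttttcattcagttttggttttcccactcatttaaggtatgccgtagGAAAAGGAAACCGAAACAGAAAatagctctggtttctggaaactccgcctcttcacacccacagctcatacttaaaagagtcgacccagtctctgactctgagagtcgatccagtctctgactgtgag
Gm12250 (chr11:58183593-58183892, plus strand): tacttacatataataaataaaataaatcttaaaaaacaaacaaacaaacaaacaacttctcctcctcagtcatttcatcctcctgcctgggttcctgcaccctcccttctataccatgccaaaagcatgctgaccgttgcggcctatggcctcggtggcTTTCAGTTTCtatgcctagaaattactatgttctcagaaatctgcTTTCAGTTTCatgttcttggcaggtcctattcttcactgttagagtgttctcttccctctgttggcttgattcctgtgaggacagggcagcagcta
Ifi206 (chr1:173491269-173491568, minus strand): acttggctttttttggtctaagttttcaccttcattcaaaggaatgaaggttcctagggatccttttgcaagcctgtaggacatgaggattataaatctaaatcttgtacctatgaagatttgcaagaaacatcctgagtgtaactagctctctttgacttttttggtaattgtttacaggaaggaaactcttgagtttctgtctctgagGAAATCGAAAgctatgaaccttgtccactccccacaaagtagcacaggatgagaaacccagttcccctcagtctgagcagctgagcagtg
Gm51489 (chr7:75822288-75822587, plus strand): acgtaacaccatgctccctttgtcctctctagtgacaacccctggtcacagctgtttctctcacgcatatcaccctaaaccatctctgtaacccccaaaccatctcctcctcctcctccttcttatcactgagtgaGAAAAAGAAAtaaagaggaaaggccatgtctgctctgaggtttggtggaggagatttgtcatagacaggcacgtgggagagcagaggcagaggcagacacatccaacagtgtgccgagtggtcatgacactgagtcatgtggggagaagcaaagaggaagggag

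Isg15, an interferon-induced ubiquitin-like modifier, held 3 overlapping matches, and Gm12250, an interferon-induced GTPase gene, held 2 matches on the opposite strand. The single match of Ifi206 began at position -40 and that of Gm51489 at position -114, counted from the transcription start. These letters are a description of the windows and not a measure of binding. In all, 25 patterns were searched, of which 12 were in none of the 10 windows, among them those of CREB, KLF and CTCF. An E-box (CACGTG or CAGCTG, either strand) was present in 7 of the 10 windows against 22.2% of all windows. One arm of the nuclear factor I site (TTGGCA) was present in 4 against 14.1%. The palindromic glucocorticoid receptor element was present in 1 window, that of Gm33945, against 0.475% of all windows. The AP-1 pattern (TGANTCA) was present in 2, those of Ifi209 and Gm51489, against 7.81%. The TEAD pattern (GGAATG) was present in 1 window (10%), against 14.7% of all windows. The pattern bound by GATA factors (AGATAA) was also in 1 window, against 11.2%. With 10 windows, these 2 shares cannot be told apart from those of all windows. GC content of the 10 windows ran from 41.3% to 62.0% with a median of 48.5%, against a median of 52.7% over all windows and 61.7% for the 12660 windows overlapped by regions with a peak in all 9 libraries. The median number of CpG dinucleotides was 3.5 per window, against 7 over all windows and 22 in those 12660.

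Peaks over the Isg15 and Gm12250 promoters were even in length, and those over Isg15 were narrower than at the median adult-only region. At Isg15 the region chr4:156200720-156200997 (mm10) was covered over 259, 238 and 277 bp in the young adult libraries and over 232, 257 and 245 bp in the mature adult libraries, so the ages overlapped. The nearest infant peak lay 1.67 kb away. At Gm12250 (chr11:58183626-58184028) the covered length was 402, 360 and 364 bp in young adult and 392, 383 and 383 bp in mature adult libraries. Both promoters were therefore called over lengths within a narrow range in all 6 adult libraries, with no infant peak over them.

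Ifi206, Ifi209 and Ifi204 belong to a cluster of interferon-inducible genes on chromosome 1 whose products include sensors of cytosolic DNA, and each had 1 adult-only region at a gene end. Ifi206 had 1 merged region in all, the adult-only region chr1:173490810-173491682, covered over 608, 364 and 599 bp in young adult and 326, 580 and 801 bp in mature adult libraries. At Ifi204 the region chr1:173766647-173767463 spanned 675, 527 and 682 bp in young adult and 663, 664 and 570 bp in mature adult libraries, and its nearest infant peak lay 34.9 kb away. At Ifi209 the region chr1:173630486-173630969 spanned 257, 309 and 479 bp, then 340, 416 and 328 bp. The ages overlapped at all 3 genes. Regions with a peak in all 9 libraries were also found in the cluster: Ifi204, Ifi209, Ifi213, Mndal, Ifi203 and Aim2 each had 1 and Ifi208 had 2. Ifi214 and Ifi211, which had no adult-only region, had no infant peak either. Genes of this cluster are related in sequence, so peaks at them are uncertain where reads could map to more than 1 gene, which was not examined. The cluster was singled out after its values had been seen. In the list of 32 interferon and antigen presentation genes, which holds none of the cluster, 1 gene (Isg15) had an adult-only region, or 3.13% of the list against 3.00% of all genes.

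Most adult-only regions lay within genes and away from gene ends. Of all 871, the centre lay inside a protein-coding gene in 577 cases (66.2%), against 61.7% of regions with a peak in all 9 libraries and 50.5% of the 12315 regions with a peak in all 3 infant libraries and no adult library (infant-only regions). They lay within 1 kb of a gene end in 34 cases (3.90%), against 25.1% and 7.16%. The median distance to a gene end was 24.7 kb, against 11.2 kb for regions with a peak in all 9 libraries and 28.4 kb for infant-only regions, and 270 (31.0%) lay beyond 50 kb. Regions with a peak in 5 adult and no infant libraries had 66.6% inside a gene and 2.91% within 1 kb of a gene end. Those with all 6 adult libraries and 1 infant library had 64.6% and 2.28%. Such positions were therefore not particular to adult-only regions. Regions share libraries and are not replicates, so these shares are descriptions without a test.

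Many adult-only regions had infant peaks close by. The nearest infant peak lay a median of 2.40 kb away, with quartiles of 0.861 and 6.26 kb, and the closest lay 2 bp away. An infant peak lay within 500 bp of 145 regions (16.6%), within 5 kb of 599 (68.8%) and within 50 kb of 843 (96.8%). Of the 871, 83 (9.53%) lay within 10 kb of another adult-only region, in 40 groups of which the largest held 4. On the autosomes and the X chromosome, adult-only regions made up between 0.558% (chromosome 1) and 0.883% (chromosome 13) of merged regions, and none of the 8 merged regions of the Y chromosome was adult-only.

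Among regions without an infant peak, the number fell with each further adult library up to 5 and was higher at 6. Of these, 15943 regions had a peak in 1 adult library, 2147 in 2, 1098 in 3, 704 in 4, 619 in 5 and 871 in all 6. With all 6 adult libraries, a further 526 regions had a peak in 1 infant library and 900 in 2. Just outside the rule, the 619 regions with 5 adult libraries lacked a peak most often in mature adult replicate 1 (200 regions, 32.3%) and least often in mature adult replicate 2 (23 regions). The 526 regions with 1 infant library had it most often in infant replicate 1 (256 regions, 48.7%), which was also the longest infant list. Infant lists held 88856 to 94646 peaks, young adult lists 67550 to 68366 and mature adult lists 59793 to 64208. Of the adult lists, those of young adult replicate 3 and mature adult replicate 1 differed most from the rest: 4901 and 4536 regions were theirs alone, against 1211 to 2003 for the other 4. With only the 59793 widest peaks of every library, the number in the shortest list, the same rule gave 2964 regions, among them 678 (77.8%) of the 871. Without the 2 libraries that differed most, 1290 regions had a peak in the other 4 adult libraries and in no infant library.

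**Figure D1:**
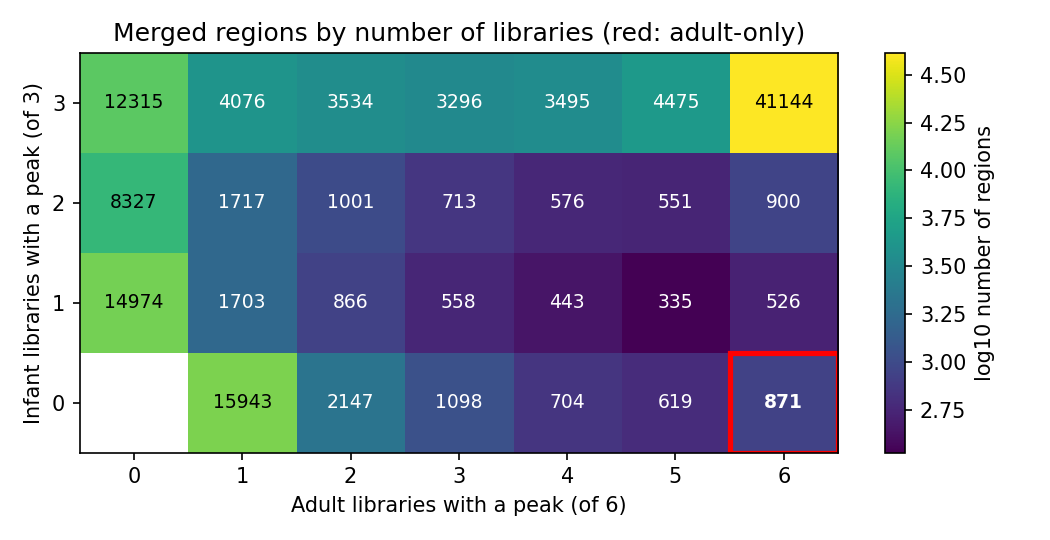
Number of merged regions by how many of 3 infant libraries (vertical axis) and how many of 6 adult libraries (horizontal axis) had a peak, coloured on a log10 scale. The outlined cell holds the 871 adult-only regions, and the corner diagonal to it holds the 12315 infant-only regions.

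The label of the cells was checked against marker genes. All 13 endothelial markers, among them Pecam1, Cdh5 and Erg, had regions with a peak in all 9 libraries, with a median of 13 per gene. A region with a peak in all 9 libraries was found at 6 of 12 epithelial markers, 5 of 19 leukocyte markers, 7 of 11 fibroblast and mural markers, 5 of 8 lymphatic markers and 3 of 10 erythroid and platelet markers, with medians of 0.5, 0, 1, 1.5 and 0 per gene. Adult-only regions were assigned to 3 of 13 endothelial markers (Kdr, Cldn5 and Emcn). They were also assigned to 2 of 11 fibroblast and mural markers (Acta2 and Myh11, both of smooth muscle). These were 23.1% and 18.2% of the markers, against 3.00% of all genes. Adult-only regions made up 1.02% (3 of 295) and 2.06% (2 of 97) of the merged regions at these lists, against 0.716% over all genes. None was assigned to an epithelial, leukocyte, lymphatic, erythroid or platelet marker. At Acta2 the region chr19:34263399-34263783 was covered over 218, 151 and 384 bp in young adult and 190, 307 and 297 bp in mature adult libraries. At Myh11 the region chr16:14294188-14294585 was covered over 339, 367 and 346 bp, then 150, 372 and 256 bp. The part of smooth muscle cells in these regions was not tested.

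Each adult-only region was given to the gene around its centre, or failing that to the closest gene end up to 100 kb away, which left 71 (8.15%) unassigned. The other 800 fell to 657 of 21887 protein-coding genes (3.00%). Of these, 544 had 1, 93 had 2, 14 had 3, 4 had 4, Coro2a had 5 and Zbtb16 had 7. Most of the 657 genes already had peaks in infants: only 30 had no region with a peak in all 9 libraries. Infant-only regions were assigned to 310 (47.2%) of them, against 25.3% of all genes. The part of gene length in this was not tested.

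Zbtb16, a zinc-finger transcription factor known as a strong target of glucocorticoids, had the most adult-only regions, 7 of its 43 merged regions. The peaks assigned to it, inside or near the gene, numbered 22 in each infant library. They numbered 34, 34 and 30 in young adults and 26, 38 and 41 in mature adults. The rule fixes part of this difference: outside the 7 regions the adult libraries had 27, 27 and 23 peaks in young adults and 19, 31 and 34 in mature adults, so mature adult replicate 1 then lay below the infants. The 7 regions were spread over the gene (chr9:48651797-48836225, 184 kb), all inside it. Zbtb16 was also assigned 14 regions with a peak in all 9 libraries, not all of them inside the gene. One of the more even was chr9:48771322-48772005, covered over 598, 552 and 509 bp in young adult and 528, 615 and 644 bp in mature adult libraries, with the nearest infant peak 9.82 kb away. By contrast chr9:48786935-48787641, of 582, 615 and 525 bp, then 540, 669 and 593 bp, lay 142 bp from an infant peak. The region chr9:48795036-48796077 varied most between libraries, from 199 bp in mature adult replicate 1 to 983 bp in young adult replicate 3. The other 4 regions were covered over 150 to 598 bp.

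Coro2a, which encodes a coronin that binds actin filaments, had 5 adult-only regions among 13 merged regions (38.5%), in a gene of 65.0 kb. Its peaks numbered 4, 2 and 2 in infants, 10, 11 and 10 in young adults and 10, 11 and 12 in mature adults. Outside the 5 regions the adult libraries had 5, 6 and 4, then 4, 5 and 5. Adult and infant libraries then met only at 4 peaks, the number of infant replicate 1. In this gene 2 regions had a peak in all 9 libraries. In 4 cases the regions lay together within 11.8 kb (chr4:46574465-46586292), between 13.8 and 16.5 kb from the nearest infant peak. This was the largest group found. The widest of them, chr4:46574465-46575509, was covered over 997, 992 and 759 bp in young adult and 756, 1009 and 912 bp in mature adult libraries. Its neighbour chr4:46575710-46576680 was covered over 553, 574 and 435 bp, then 648, 895 and 741 bp, so that every mature adult library was above every young adult library. The same order held at chr4:46585501-46586292, with 518, 502 and 367 bp, then 565, 676 and 676 bp.

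**Figure D2:**
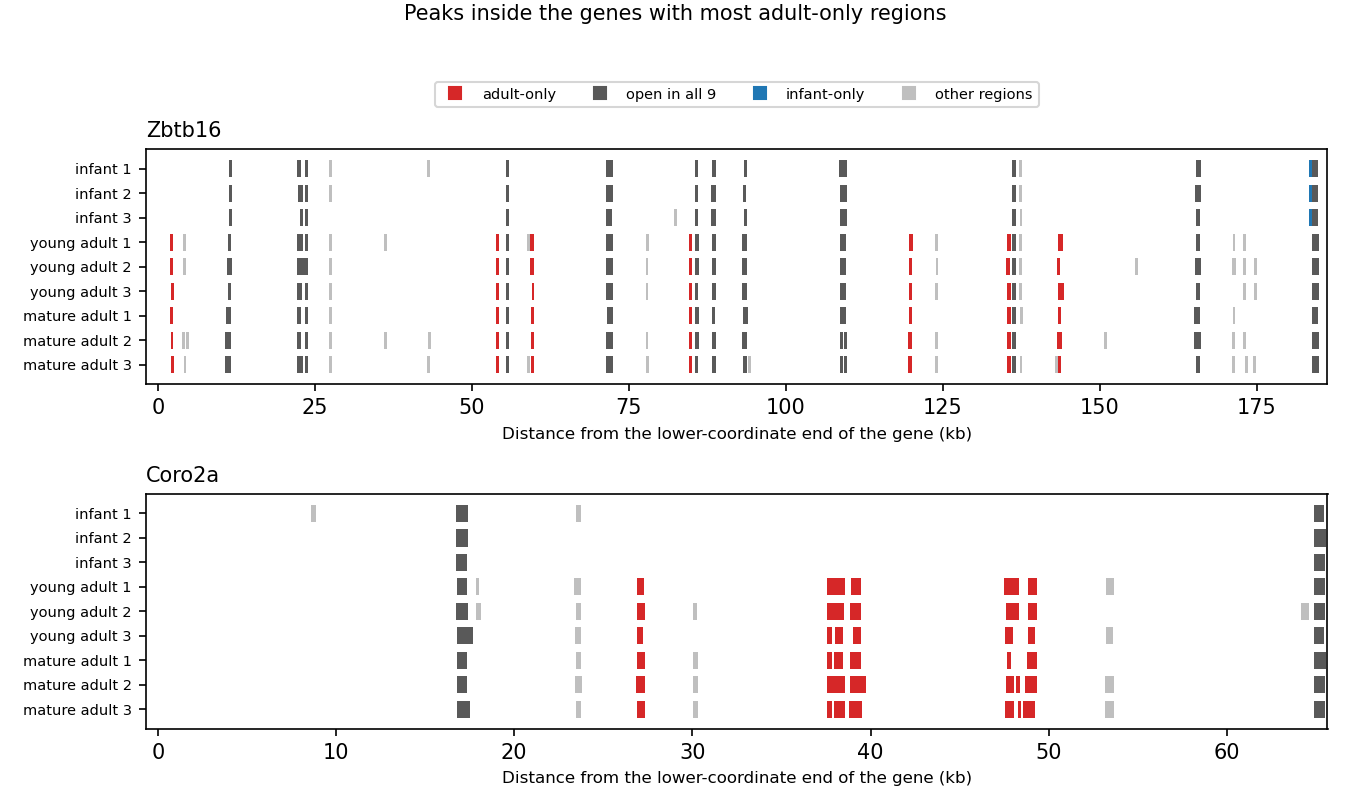
Peaks of each library (rows) along Zbtb16 and Coro2a, by distance in kb from the lower-coordinate end of the gene. Red bars mark the 7 and 5 adult-only regions, present in all 6 adult rows and absent from the 3 infant rows; dark bars mark regions with a peak in all 9 libraries.

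Another 18 genes had 3 or 4 adult-only regions. Those with 4 were Aff3 (a nuclear elongation factor, 86 merged regions), Prkce (protein kinase C epsilon, 118), Sema5a (a semaphorin that guides cells, 46) and Tacc1 (27). Those with 3 were Col4a1 (a chain of basement membrane collagen, 45 merged regions), Pdgfd (a ligand of the PDGF receptor on mural cells, 28), Shroom3 (an actin-binding shape regulator, 64), Prickle2 (of planar cell polarity, 122), Add3 (adducin of the membrane skeleton, 31), Nedd4l (a ubiquitin ligase, 62), Lnx2 (a ubiquitin ligase, 23), Mast4 (a kinase, 72), Ctdspl (a phosphatase, 27), Galnt18 (a glycosyltransferase, 72), Oxr1 (of oxidation resistance, 42), Sntg1 (a syntrophin, 25), Tmtc1 (30) and 1700057G04Rik (13). Per gene length, Coro2a had 7.69 adult-only regions per 100 kb, 1700057G04Rik 6.18, Zbtb16 3.80 and Lnx2 3.34, against 0.318 in Sntg1. Sntg1 nevertheless had its 3 regions within 8.80 kb, more than 20 kb from any infant peak. Mast4 had 12 infant-only regions beside its 3 adult-only regions, and its peak number was 49 to 51 in infant and 24 to 40 in adult libraries.

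Among gene lists, glucocorticoid-responsive genes had the highest share of adult-only regions, and Zbtb16 held 7 of their 13. Of 24 genes, 5 (20.8%) had adult-only regions, against 3.00% of all genes, and 4.48% of the list's merged regions were adult-only, against 0.716% over all genes. Without Zbtb16 the share was 2.43% (6 of 247 regions). Tsc22d3, a glucocorticoid-induced leucine zipper protein, had 2, of which chrX:140513208-140513792 was covered over 572, 569 and 429 bp in young adult and 420, 498 and 398 bp in mature adult libraries. Klf9, a Krüppel-like factor, had chr19:23094779-23095456 with 622, 440 and 510 bp, then 442, 498 and 467 bp. Sgk1, a glucocorticoid-induced kinase, had 1 and Tgm2, a transglutaminase, had 2. The ages overlapped at these regions of Tsc22d3 and Klf9. Of 19 circadian clock genes, many of which also respond to glucocorticoids, only Rora had an adult-only region. This was 5.26% of the genes and 0.478% of the merged regions of that list. Infant-only regions made up 6.90% of merged regions at the glucocorticoid list, against 9.46% over all genes.

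Genes of general capillary cells, the lung's stem-like capillary type, formed the list with the highest share of genes: 8 of 20 (40.0%) had an adult-only region, against 3.00% of all genes. These genes carried 25.9 merged regions each, against 5.11 over all genes, and adult-only regions made up 1.74% of them, against 0.716%. Nostrin, which binds endothelial nitric oxide synthase, had the widest, chr2:69155326-69156500. It was covered over 750, 1017 and 1017 bp in young adult and 334, 923 and 962 bp in mature adult libraries, so mature adult replicate 1 alone was low. Bmpr2, a BMP receptor whose loss causes pulmonary hypertension, had chr1:59843533-59843942 with 204, 341 and 291 bp, then 343, 409 and 362 bp, so that the ages did not overlap. Cd36, a fatty acid transporter, had 2 regions, and Lpl, Cd93, Kit, Itga1 and Clec1a had 1 each. Genes of aerocytes, the lung's gas-exchanging capillary type, had adult-only regions at 3 of 20 (Kdr, Fibin and Emp2). Arterial genes had them at 2 of 20 (Efnb2 and Cxcr4), and venous and leukocyte adhesion genes at 0 of 18. The aerocyte, arterial and venous lists carried 17.8, 18.45 and 11.5 merged regions per gene, fewer than the general capillary list. Adult-only regions made up 1.12%, 0.542% (2 of 369) and 0% (0 of 207) of them, against 0.716% over all genes. Infant-only regions made up 2.13% of merged regions at general capillary genes, 13.0% at arterial genes and 11.1% at venous genes.

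Adult-only regions were found both at genes of stable vessels and at genes of growing vessels. Of 28 genes of vessel stability and quiescence, 8 (28.6%) had one, and of 27 genes of growing vessels and tip cells, 7 (25.9%) had one, against 3.00% of all genes. The lists carried 24.6 and 17.1 merged regions per gene, against 5.11 over all genes, and adult-only regions made up 1.31% and 1.95% of them, against 0.716%. Angpt1, the ligand that activates the Tie2 receptor and stabilises vessels, had chr15:42719360-42720288, 42.8 kb from the gene and 35.0 kb from any infant peak. It was among the 12 adult-only regions of highest width rank within the libraries, with 747, 757 and 799 bp in young adult and 780, 877 and 792 bp in mature adult libraries. Thbd, the thrombin receptor that limits clotting, had chr2:148402153-148402655 with 471, 437 and 502 bp, then 487, 471 and 469 bp. Klf4, a flow-responsive factor, had chr4:55475586-55476066 with 448, 411 and 383 bp, then 449, 348 and 461 bp. The ages overlapped at all 3. S1pr1, a barrier-promoting sphingosine-1-phosphate receptor, Smad6, an inhibitor of BMP signalling, and Tcf4 also had adult-only regions.

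At the growing-vessel list, Kdr, the main VEGF receptor, had chr5:75932648-75933239, 116 bp from an end of the gene and 200 bp from an infant peak. It was covered over 329, 277 and 352 bp in young adult and 359, 367 and 591 bp in mature adult libraries. These lengths did not overlap, but the ages overlapped after each library was centred on its median. Flt1, the decoy VEGF receptor, Pdgfb, the ligand that recruits pericytes, Ccnd1, a cyclin of cell division, Cxcr4 and Col4a2 had 1 each, and Col4a1 had 3. At 21 immediate early genes, 1.15% of merged regions were adult-only, against 0.716% over all genes. Jun, the AP-1 subunit, was the sole gene of this list with adult-only regions and had 2. Of these, chr4:95100654-95101807 was covered over 360, 310 and 353 bp in young adult and 632, 430 and 950 bp in mature adult libraries. Every mature adult library was above every young adult library there.

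The remaining lists had adult-only regions at 2 to 6 genes each. Over all genes, 3.00% had one, and 0.716% of merged regions were adult-only. Actin cytoskeleton and small GTPase genes had adult-only regions at 6 of 25 (24.0%), with 13 regions of which Coro2a held 5 and Prkce 4. These were 1.55% of the merged regions of that list, and 0.969% (8 of 826) without Coro2a. The lists were chosen with earlier results of these data known. Fatty acid and lipid genes had adult-only regions at 4 of 25 (16.0%: Cd36, Lpl, Ppard and Hpgd), 1.72% of their merged regions. Without Cd36 the share was 1.26% (3 of 238). Extracellular matrix genes had 6 adult-only regions at 4 of 24 genes, 1.37% of their merged regions, whereas infant-only regions made up 19.2%. Without Col4a1 the adult-only share was 0.763% (3 of 393). NF-kappaB and inflammation genes had them at 2 of 25 (Nfkb1 and Birc3). Some genes stand in more than 1 list, such as Kdr, Cd36 and Col4a1.

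**Figure D3:**
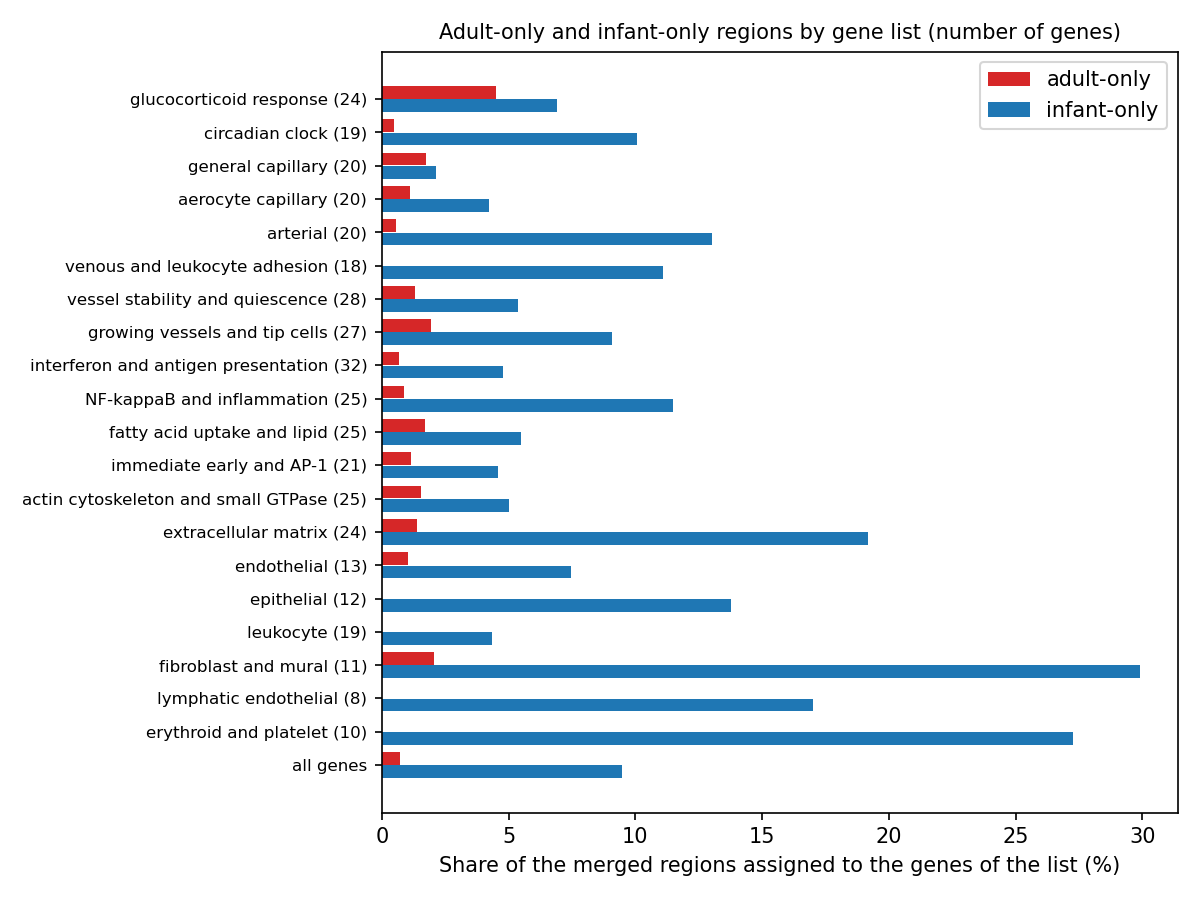
Share of merged regions assigned to the genes of each list that were adult-only (red) or infant-only (blue), in percent, with the number of genes in parentheses. Adult-only regions run from 0% at venous genes to 4.48% at glucocorticoid-responsive genes, against 0.716% over all genes, and infant-only regions reach 29.9% at fibroblast and mural genes.

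By merged width, adult-only regions were narrower than regions with a peak in all 9 libraries but not than merged regions in general. The latter include many regions with a peak in 1 library. Within each adult library, adult-only regions were narrower than the typical peak. Their merged width had a median of 472 bp, with quartiles of 366 and 616 bp and a range of 170 to 1588 bp. The median was 885 bp for regions with a peak in all 9 libraries, 439 bp for infant-only regions and 431 bp for all merged regions. The width was close to that of regions just outside the rule, with 387 bp for those with 5 adult and no infant library, 487.5 bp for those with all 6 adult and 1 infant library and 504.5 bp with 2 infant libraries. The median adult-only region was covered over 330, 331 and 331 bp in young adult and 317, 375 and 367 bp in mature adult libraries. The median peak of the same libraries was 441, 442 and 396 bp, then 406, 439 and 435 bp wide. Regions with a peak in all 9 libraries were covered over 676, 684 and 607 bp, then 575, 648 and 644 bp. Adult-only regions were therefore 0.484 to 0.579 times as wide as those in every adult library.

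**Figure D4:**
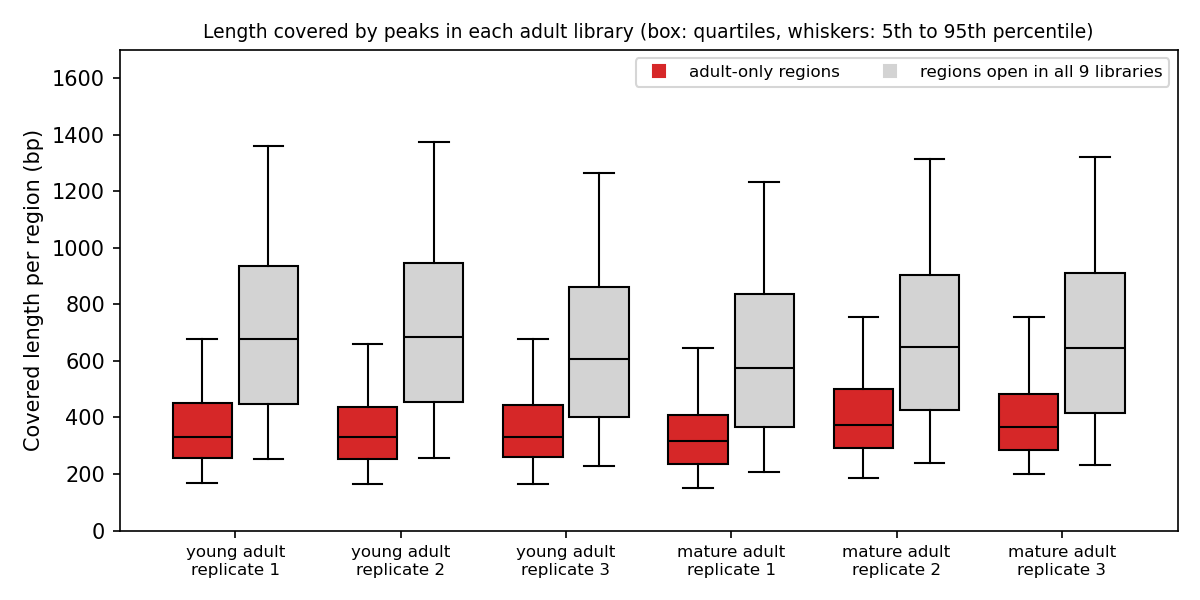
Length in bp covered by peaks per region in each of the 6 adult libraries, for adult-only regions (red) and regions with a peak in all 9 libraries (grey), with boxes at the quartiles and whiskers at the 5th and 95th percentiles. The red medians lie between 317 and 375 bp and the grey medians between 575 and 684 bp.

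Some adult-only regions were as wide as typical shared ones. The first by mean width rank within the libraries, chr14:109896209-109897327, was covered over 903, 722 and 827 bp in young adult and 1018, 1016 and 1118 bp in mature adult libraries and lay 851 kb from any gene and 647 kb from any infant peak. Others of the first 12 by this rank lay in or near Ankrd29, Tmeff2 (a transmembrane regulator of growth factor signalling), Fer (a tyrosine kinase of cell junctions), Angpt1, Marcks (a membrane-bound substrate of protein kinase C), Aff3, Fastkd1 (of mitochondrial RNA), Ptprd (a receptor phosphatase), Myrip (a linker of vesicles to myosin), 1700057G04Rik and Speer2. At Fer the region chr17:64106379-64107237 was steady, with 820, 796 and 777 bp, then 763, 840 and 806 bp. At Ptprd the region chr4:76792944-76794221 was not, with 837, 680 and 982 bp, then 1192, 366 and 1267 bp. Speer2 belongs to a multi-copy family and is uncertain. Within 1 kb of a gene end the highest ranks were at Vipr1 (a receptor of vasoactive intestinal peptide), Ifi204, Ifi206, Anxa6 (an annexin), Tmem213, Tmem221, Stard3nl and Mbd1, beside the promoter windows named above. At Vipr1 the region chr9:121672969-121673661 was covered over 682, 683 and 619 bp, then 605, 627 and 632 bp.

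All adult-only regions had peaks in both adult ages by the rule, but the rule did not use the covered length, which was therefore compared between mature and young adult libraries. Covered length was tested for all 43441 regions with a peak in all 6 adult libraries, on the log2 scale after each library was centred on its median. No region of any kind passed an adjusted p of 0.05 in limma, so 0% were called. At an unadjusted p below 0.05, limma gave 3237 of all regions (7.45%) and 115 of the 871 adult-only regions (13.2%), of which 92 were wider and 23 narrower in mature adults.

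Adult-only regions leaned towards wider peaks in mature adults. The median log2 change was 0.13 for adult-only regions and 0.03 for all regions tested, and 593 (68.1%) were above 0 against 58.2%. After centring, 137 adult-only regions (15.7%) were wider in all 3 mature than in all 3 young adult libraries, against 7.41% of all regions tested, and 32 (3.67%) were narrower, against 5.34%. Regions with 1 infant library lay between, with a median change of 0.10 and 13.5% wider in all 3 mature libraries. Regions with 2 infant libraries had 0.08 and 11.7%, and regions with a peak in all 9 libraries had 0.03 and 7.06%. These are counts over regions that share 6 libraries, and no difference between the kinds of region was tested.

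Over libraries, the median centred log2 length of adult-only regions was -0.98, -1.0 and -0.83 in young adult and -0.81, -0.75 and -0.77 in mature adult libraries. The mean was -0.94 ± 0.09 (SD, n = 3) in young and -0.77 ± 0.03 in mature adults, 0.16 apart (two-sided exact permutation test with 20 arrangements, p = 0.1, the smallest p that 3 against 3 libraries can give). Without centring the medians in bp were 330.7 ± 0.577 and 353.0 ± 31.4 (SD, n = 3; same exact test, p = 0.4), since mature adult replicate 1 was low. Adult-only regions made up 0.881%, 0.853% and 0.982% of the covered bases in young adult and 1.02%, 1.06% and 1.06% in mature adult libraries. Young adult replicate 3 was the nearest to the mature adult libraries in each of these centred or relative measures, and mature adult replicate 1 was the nearest to the young adult libraries. Whether the length of the lists sets this order was not tested.

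**Figure D5:**
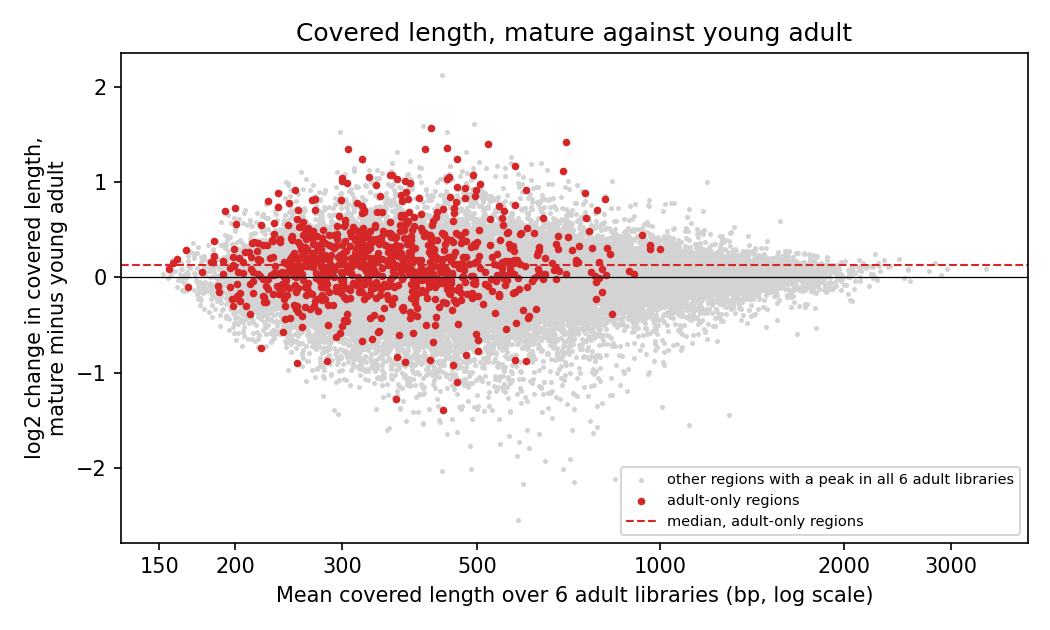
Change in covered length between mature and young adult libraries (log2, centred) against the mean covered length over 6 adult libraries (bp, log axis), for adult-only regions (red) and the other regions with a peak in all 6 adult libraries (grey). The dashed line is the median of adult-only regions, 0.13.

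Single adult-only regions reached large changes without passing the test. The lowest adjusted p among them was 0.141 in limma, at chrX:43804884-43805996, which was covered over 436, 325 and 427 bp in young adult and 853, 1078 and 1077 bp in mature adult libraries, a log2 change of 1.42. Near Chmp4c, a component of the ESCRT membrane-scission machinery, chr3:10395429-10395987 went from 198, 150 and 192 bp to 417, 427 and 452 bp, a log2 change of 1.35 (limma adjusted p = 0.187). Near Cldn5, the tight junction claudin of endothelium, chr16:18755483-18755863 had 276, 219 and 225 bp, then 361, 356 and 343 bp, a log2 change of 0.64 (limma adjusted p = 0.448). At Pdgfd, chr9:6089722-6090649 had 626, 661 and 671 bp, then 866, 925 and 823 bp, a log2 change of 0.49 (limma adjusted p = 0.339). In the other direction, Prkce had chr17:86505047-86505581 with 469, 534 and 496 bp, then 214, 343 and 228 bp, a log2 change of -0.89 (limma adjusted p = 0.346). The ages did not overlap at any of these 5 regions, a set chosen after its values had been seen. The narrowest peak width in the lists was 150 bp, so lengths near it cannot show further narrowing.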

How the data were processed

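ATAC-seq peak lists of 9 mouse lung endothelial libraries, 3 per age, were used. The authors deposited chromosome, start and end of each peak and no other value per peak, per the file headers. The submitters' processing notes name cutadapt, Bowtie2 and Picard without versions, and build mm10. How peaks were called, at which threshold, and whether reads were shifted for the transposase is not given in the sources used here. Many intervals fill several rows of a deposited list, and each was counted once. Starts may be off by 1 bp.

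Intervals overlapping by at least 1 bp were merged, and the covered bases per region and library were computed with Python 3.11.15, numpy 2.4.6 and pandas 2.3.3. Genes came from 21887 protein-coding RefSeq genes of GRCm38.p6 (the build of mm10, without strand or exons, so a region is called only inside or outside a gene), and all 361 symbols of the lists were matched, of which Bmal1 and Arntl are the same gene. Promoter windows (32851) came from RefSeq too. Searches within the regions themselves, planned for 25 motif groups, were not analysed here, because no genome was used, so motifs were searched only in promoter windows that the regions overlap.

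Log2 covered length, centred on the library median, was tested with limma 3.58.1 (trend; R 4.3.3), mature against young adult, with Benjamini-Hochberg adjustment over 43441 regions. Single values per library were tested by exact permutation. On simulated data for this comparison (43441 regions), limma recovered 40% of regions changed by 1 on the log2 scale, 74% of those raised by 2 and 70% of those lowered by 2, and called 5 of 43241 unchanged regions. The simulated noise was normal and independent, and simulated lengths could fall below the 150 bp of the narrowest real peak. Changed regions were drawn from all 43441. The shares recovered therefore do not describe adult-only regions in particular. Depth is unknown, so no limit from reads can be given.

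Regions named are the 12 of highest mean width percentile within the adult libraries, up to 12 at gene ends or promoter windows, genes with 3 or more adult-only regions, up to 3 regions for each of 14 gene lists and 6 marker lists, and regions past the width test (none). Further regions are named by their role in a list. Members and lists were chosen with earlier results of these data known. Alternatives were other overlaps, gaps and merging, equal numbers of peaks, left-out libraries, other length measures and the replicate number as a block. Alternatives for the gene lists and for the counts of separated lengths were added after the data had been seen.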

Additional observations from a re-analysis of the deposited data

How the results depend on the processing

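The number of adult-only regions moved most when equal numbers of peaks were used. With the 59793 widest peaks of every library, the number in the shortest list, 2964 regions had a peak in all 6 adult and no infant library, and 678 of the 871 (77.8%) were among them. The narrowest peak then kept was 299 to 354 bp in infant and 150 to 205 bp in adult libraries, so this setting changed both the number and the minimum width of peaks. The share within 1 kb of a gene end was 5.43% under that setting, and 14.4% of the 871 lay within 5 kb. Rows as deposited gave 871 regions, a cover of at least 25% gave 928, no infant peak within 500 bp gave 726 and merging across 100 bp gave 861. Leaving out 1 library gave 905 to 1127 regions and 3.50% to 4.16% within 1 kb of a gene end. Limma called 0 regions by adjusted p in the 12 settings of the width test, main setting included, where the lowest adjusted p of an adult-only region ran from 0.0568 to 0.493, and 81 to 165 adult-only regions had an unadjusted p below 0.05. The difference in median length ran from 0.13 to 0.22 without 1 adult library and was 0.09 without centring (exact permutation, p = 0.1 to 0.4). Without centring, 97 adult-only regions were wider in all 3 mature libraries (all regions 3.70%) and 45 narrower (9.17%). The 8 general capillary genes with adult-only regions were 5, and the 7 growing-vessel genes 4, when no infant peak was allowed within 500 bp (2.56% of all genes, against 3.00%). Under equal peak numbers, when 8.93% of all genes had such a region, the count was 10 for glucocorticoid genes, 11 for general capillary genes, 15 for vessel stability genes, 10 for growing-vessel genes and 15 for actin and GTPase genes.

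Replicate numbers are shared between the ages. In covered length, same-numbered adult libraries did not deviate together from their group means (correlations of -0.0575, 0.0671 and -0.0140). Covered length alone cannot show whether same-numbered libraries were handled together, and infant libraries were not part of this check. With the replicate block limma called 0 regions and 119 adult-only regions had an unadjusted p below 0.05. The paired difference in median length was 0.16 (exact sign-flip test, p = 0.25, the smallest 3 pairs allow).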
